A study of Mus musculus with 12 samples.

Results

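The 9 genes Gnat1, Gnb1, Gngt1, Pde6a, Pde6b, Pde6g, Cnga1, Sag and Rcvrn encode proteins of the light response of rods, the photoreceptors of dim light. They were taken by symbol from a table of 21930 genes, each symbol matched 1 row, and all 9 passed the filter on low counts in each comparison. RNA-seq libraries had been made from the eyes of wild-type male C57BL/6J mice, 12 in all, with 3 libraries in each of 4 groups. AL mice fed ad libitum and IF mice fasted on alternate days for 12 weeks from the age of 8 weeks, and both then received 1 intraperitoneal injection of NaIO3 at 25 mg/kg or of PBS and stayed on their diet until tissue was taken 7 days later. The groups are AL + PBS, IF + PBS, AL + NaIO3 and IF + NaIO3. NaIO3 (sodium iodate) is an oxidant that injures the retinal pigment epithelium (RPE), on which rods depend. The labels number the libraries of a group without saying that each is a separate mouse, so p-values measure the spread between these samples. The injection is systemic, so it reaches other tissues too.

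In the dark, cyclic GMP holds open the cation channels of the rod outer segment. The light-activated visual pigment switches on transducin, whose α subunit releases the catalytic subunits of phosphodiesterase 6 from their inhibitory γ subunits. Cyclic GMP then falls, the channels close and the cell hyperpolarizes, until a receptor kinase and arrestin shut off the pigment. Calcium-bound recoverin holds the kinase back and is released from it as calcium falls. Gnat1, Gnb1 and Gngt1 encode the α, β and γ subunits of rod transducin, Pde6a and Pde6b the catalytic and Pde6g the inhibitory subunits of phosphodiesterase 6, Cnga1 a subunit of the channel, Sag rod arrestin, and Rcvrn recoverin, the calcium sensor that restrains the kinase. The genes lie on separate chromosomes but for pairs on chromosomes 5 (Pde6b and Cnga1) and 11 (Pde6g at chr11:120447605-120453500 and Rcvrn at chr11:67695326-67703333, in the coordinates of GRCm38 that the files use), and Gnat1 is at chr9:107674474-107679712. Most of them are largely confined to photoreceptors, whereas Gnb1 is also made in many other cell types and Sag and Rcvrn are also found in cones.

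The labels name the tissue as RPE, choroid and sclera, the study's methods describe eye cups and its legends retinas. Rod transcripts were abundant throughout: the 9 genes took between 1.23% and 3.20% of all counts of a library. In AL + PBS their summed level was 28540 to 29329 CPM, and that of a list of 12 RPE genes was 1762 to 1951. These sums are not divided by gene length and the lists differ in size, so the gap gives no ratio of transcripts. Library totals were between 26364665 and 43046950 counts, and the lowest count of a member was 7458, for Gngt1 in AL + NaIO3 replicate 3. CPM, counts relative to the library total, were scaled here by TMM factors, which correct for library composition. AL + NaIO3 replicate 3 stood apart from the other libraries, with the lowest summed level of the rod genes (10843 CPM) and the highest of the choroid and sclera list and of the macrophage and microglia list, so the results of the 9 genes on that group are also given without it. In bulk tissue, fewer rods in a sample and less RNA per rod cannot be told apart.

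Levels of different genes can be compared only per length, here as the deposited FPKM, a unit that corrects for how long a gene is and for library depth. On this scale Gnat1 was the highest of the 9 in AL + PBS, at 3686 ± 158 FPKM (SD, n = 3). Sag followed at 1940 ± 28.8, Gnb1 at 1775 ± 53.4 and Pde6g at 1598 ± 83.8, and these neighbours in the order did not overlap between libraries. Rcvrn stood at 654 ± 7.32, Pde6b at 552 ± 27.1, Gngt1 at 468 ± 55.9, Pde6a at 403 ± 10.8 and Cnga1 at 324 ± 24.0 FPKM. In this lower part of the order the ranges of Pde6b (521 to 573) and Gngt1 (416 to 527) overlapped. The gap between Gnat1 and Sag depended on the group: in IF + PBS their means were 3494 and 2661 FPKM, and in AL + NaIO3 they were 2337 and 2362, with Sag above Gnat1 only in replicate 3 (1499 against 1281).

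The summed level of the 9 genes separated the libraries of AL + NaIO3 from one another more than it separated the groups. It was 33377 CPM in AL + NaIO3 replicate 1, 19985 in replicate 2 and 10843 in replicate 3, or 115%, 68.8% and 37.3% of the AL + PBS mean. In IF + PBS it was 27146, 29036 and 29844 CPM, and in IF + NaIO3 29066, 30647 and 27594 CPM. The IF + NaIO3 libraries therefore lay between 95% and 105% of the AL + PBS mean, a range that the AL + NaIO3 libraries exceeded on both sides. Each of the 9 genes had its lowest level of the 12 libraries in AL + NaIO3 replicate 3, at between 25.6% of the AL + PBS mean for Pde6g and 65.8% for Sag.

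**Figure D1:**
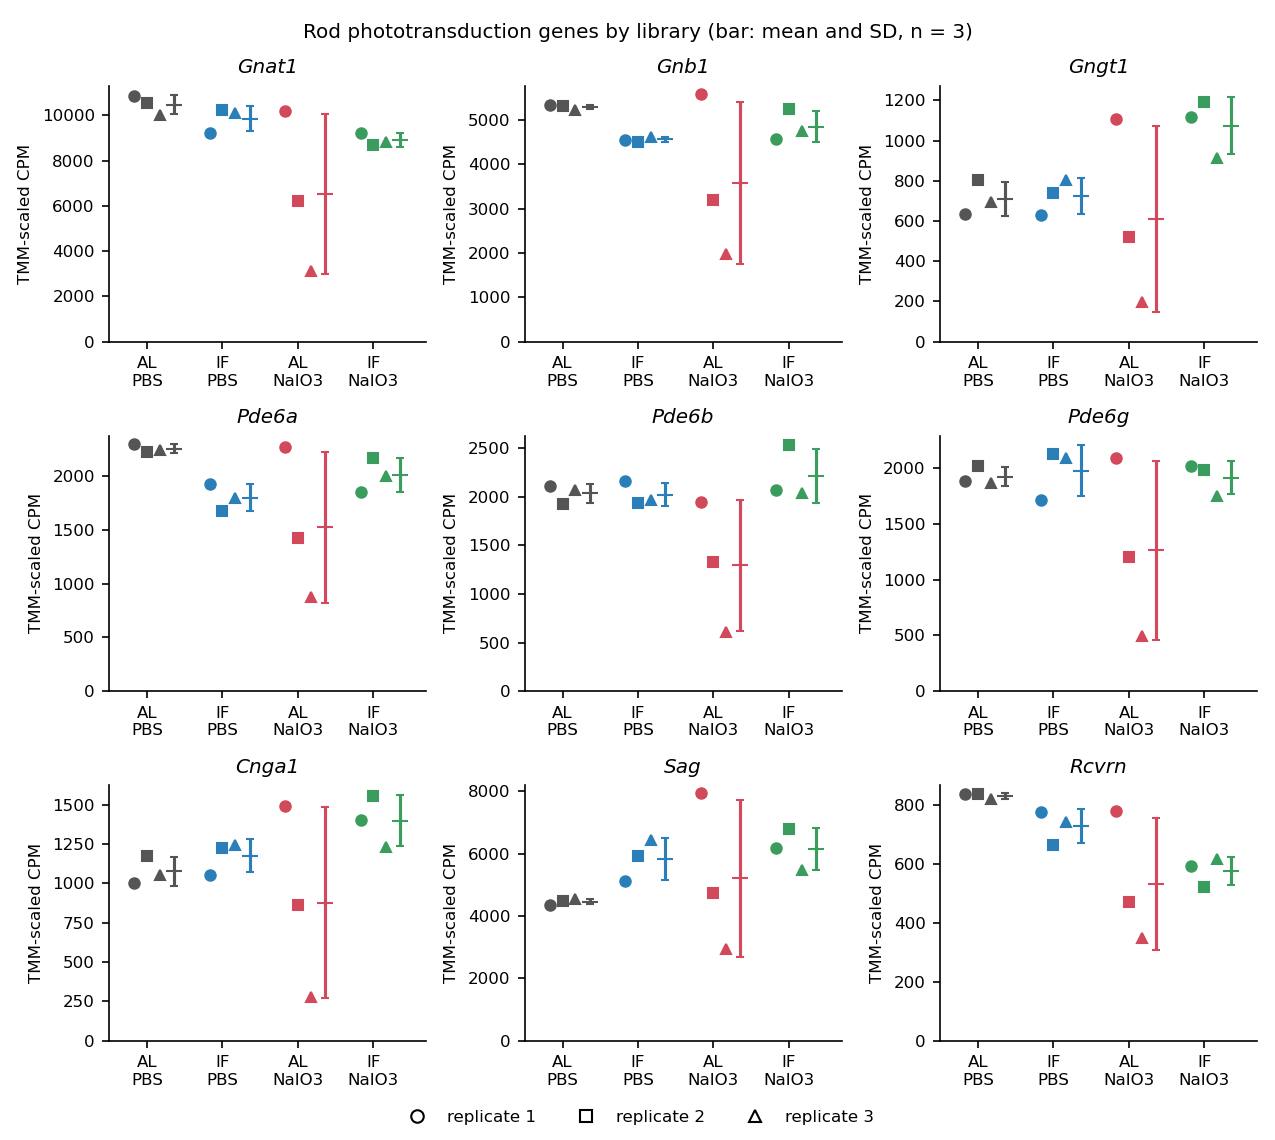
Level of each of the 9 rod genes in TMM-scaled CPM (vertical axes, from 0) in every library of the 4 groups, with symbols for the replicate number and a bar for the mean and SD of 3 libraries. In AL + NaIO3 the libraries are spread widely, for Gnat1 from 3129 to 10181 CPM, while the other groups are compact and Sag is higher in every IF library than in AL + PBS.

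The comparison of AL + NaIO3 with AL + PBS addresses the injection under free feeding. Of the 9 genes, 8 had a lower mean and Sag a higher one, the median log2 fold change was -0.56 against 0.01 over all genes tested, and 0 of 9 passed the test, with the 3 AL + NaIO3 libraries spread widely. Genes were called by edgeR's quasi-likelihood test at an adjusted p under 0.05 with a fold change of at least 1.5, and 0.0769% of all genes tested were called. At an unadjusted p under 0.05 there were 0 of 9 members with edgeR, where 10.2% of all genes fell under it, and 2 of 9 with DESeq2 (10.8% of all genes), which called 0 of 9 and 2.53% of all genes. With the 12 libraries fitted together 0 of 9 were called, against 1.11% of all genes.

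Transducin was lower in 2 of the 3 AL + NaIO3 libraries. Gnat1, the α subunit, was at 10870, 10541 and 10018 CPM in AL + PBS and at 10181, 6232 and 3129 CPM in AL + NaIO3. Replicate 1 fell within the control range and the others below it, which gave a log2 fold change of -0.68 ± 0.41 (SE, adjusted p = 0.614 by edgeR). Gnb1, the β subunit, had 5329, 5313 and 5236 CPM in AL + PBS against 5577, 3202 and 1981 in AL + NaIO3 (log2 fold change -0.55 ± 0.36, adjusted p = 0.642). Gngt1, the γ subunit, differed in that replicate 1 lay far above the controls, at 1110 CPM against 636, 802 and 695, while replicates 2 and 3 lay below them, at 520 and 198. Its log2 fold change was -0.22 ± 0.51.

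The subunits of phosphodiesterase 6 were arranged alike. Pde6b was at 2112, 1921 and 2072 CPM in AL + PBS and at 1951, 1331 and 605 in AL + NaIO3 (log2 fold change -0.64 ± 0.37, adjusted p = 0.597). Pde6a, its partner in the catalytic dimer, was at 2299, 2220 and 2238 CPM against 2265, 1422 and 877 (-0.56 ± 0.32). Pde6g, the inhibitor, was at 1882, 2019 and 1863 CPM against 2092, 1202 and 491 (-0.60 ± 0.44). In each of the 3, replicate 1 was inside or above the control range and the other libraries were below it. Cnga1, the channel subunit, had 1001, 1177 and 1051 CPM in AL + PBS and 1493, 864 and 278 in AL + NaIO3, the same order as Gngt1 with 1 library above the controls (-0.29 ± 0.49).

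Rcvrn and Sag, whose products act on the shut-off of the pigment, differed from each other. Rcvrn was at 834, 835 and 818 CPM in AL + PBS and at 779, 470 and 346 in AL + NaIO3, so it was lower in 3 of 3 libraries without overlap. It was the only such member, where 8.63% of all genes tested were lower without overlap and 9.67% higher, and its log2 fold change of -0.63 ± 0.28 had an unadjusted p of 0.0521 and an adjusted p of 0.493. The Rcvrn gene overlaps Glp2r on the chromosome (2168 to 5418 counts), and reads of the overlap may have been assigned to either. Sag was at 4365, 4479 and 4548 CPM in AL + PBS and at 7931, 4743 and 2937 in AL + NaIO3. Rod arrestin was thus above all controls in 2 libraries and below them in the third (0.23 ± 0.36, adjusted p = 0.868).

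Leaving out AL + NaIO3 replicate 3 changed the size and, for 2 genes, the direction. The median log2 fold change of the members was then -0.27, Gngt1 was at 0.20 ± 0.28 and Cnga1 at 0.13 ± 0.22, and 0 of 9 were called, against 0.572% of all genes. Sag was higher without overlap (0.50 ± 0.22, adjusted p = 0.410) and Rcvrn lower (-0.41 ± 0.20, adjusted p = 0.459), in a fit where 15% of all genes were higher and 15.1% lower without overlap. Leaving out replicate 1 instead moved the median to -1.02, with 9 of 9 lower, and 7 of 9 at an unadjusted p under 0.05 where 18.7% of all genes were. The adjusted p-values of the 9 by edgeR were then between 0.106 (Rcvrn, at -1.02 ± 0.17) and 0.667, above the threshold of 0.05.

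IF + NaIO3 against AL + NaIO3 asks whether rod transcripts differed by diet in injected mice. All 9 means were higher in IF + NaIO3, with a median log2 fold change of 0.44 against -0.01 over all genes tested. None was called (0 of 9, against 0.0383% of all genes, and 0 of 9 with DESeq2, against 2.93%), and none had an unadjusted p under 0.05 with edgeR, where 11.7% of all genes did, while 1 of 9 did with DESeq2, where 12.1% did. The 12-library fit called 0 of 9, against 1.19% of all genes. The adjusted p-values of the 9 were between 0.483 and 0.894.

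Pde6b was the one member whose groups did not overlap, at 2069, 2533 and 2041 CPM in IF + NaIO3 against at most 1951 in AL + NaIO3 (log2 fold change 0.76 ± 0.38, adjusted p = 0.483). Among all genes 8.86% were higher and 10.1% lower without overlap. Gngt1 had the largest difference of the means, 0.81 ± 0.51, with 1120, 1191 and 915 CPM in IF + NaIO3, but AL + NaIO3 replicate 1 lay within that range. Cnga1 was at 1406, 1555 and 1231 CPM (0.66 ± 0.50) and Pde6g at 2014, 1983 and 1744 CPM (0.59 ± 0.44). For Gnat1, with 9246, 8677 and 8839 CPM, AL + NaIO3 replicate 1 was above all 3 IF + NaIO3 libraries (0.44 ± 0.41). Sag was at 6193, 6781 and 5465 CPM (0.23 ± 0.37), and Rcvrn, at 591, 521 and 614 CPM, had the smallest difference (0.10 ± 0.28).

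The groups also differed in spread. The coefficient of variation of Gnat1 was 54.3% in AL + NaIO3 and 3.29% in IF + NaIO3, that of Pde6a 46.0% and 7.87%, and that of Gngt1 75.9% and 13.3%. Over the 9 genes the coefficient ran from 41.9% to 75.9% in AL + NaIO3 and from 3.29% to 13.3% in IF + NaIO3. These values include AL + NaIO3 replicate 3, and the spread without it is not given. The difference in spread was not tested. Without AL + NaIO3 replicate 3 the median of the members was 0.13 and 7 of 9 were higher, Sag (-0.06 ± 0.24) and Rcvrn (-0.13 ± 0.21) being lower. Pde6b still did not overlap (0.42 ± 0.20, adjusted p = 0.595, where 12.2% of all genes were higher without overlap), and 0 of 9 were called, against 0.476%. Without replicate 1 the median was 0.92, and 9 of 9 had an unadjusted p under 0.05 where 22% of all genes did. The adjusted p-values of the 9 by edgeR were then between 0.135 and 0.219, above the threshold of 0.05.

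**Figure D2:**
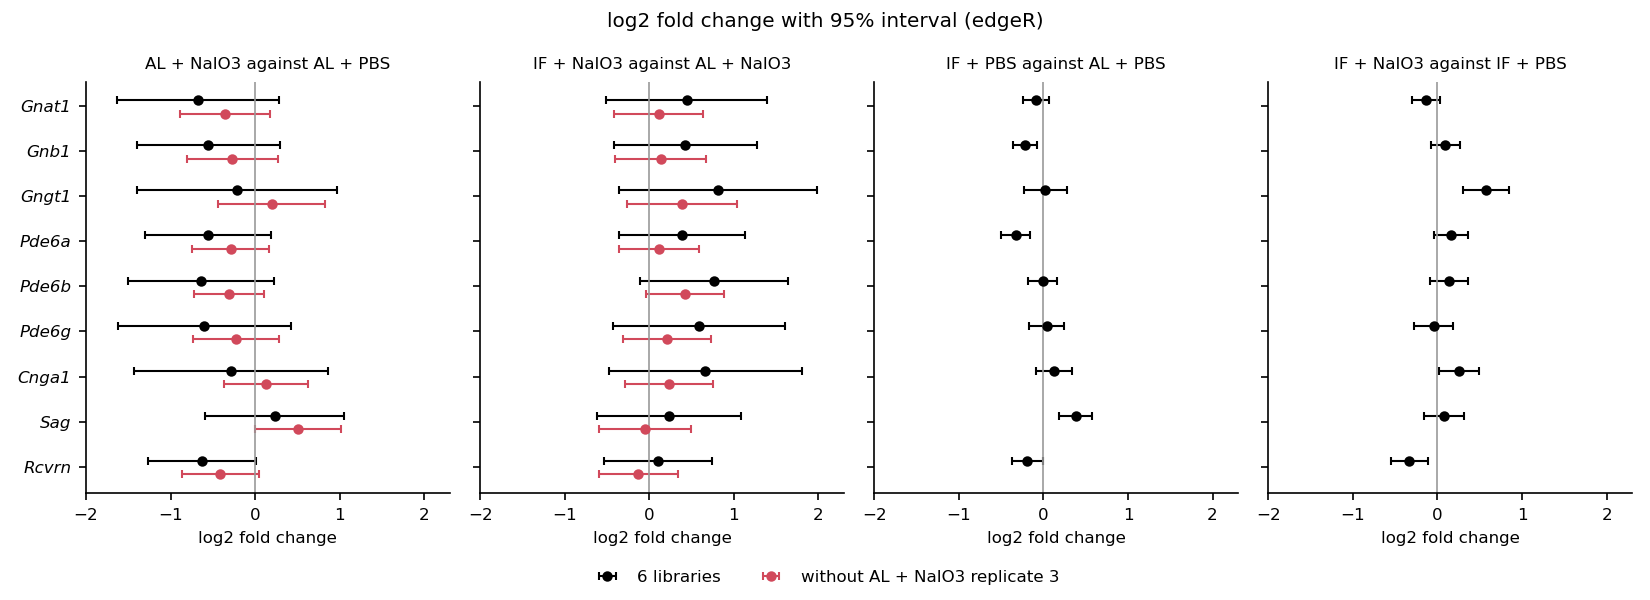
log2 fold change (horizontal axes) of each rod gene in the 4 comparisons of groups, with the 95% interval from edgeR, for 6 libraries (black) and without AL + NaIO3 replicate 3 (red) where that group takes part. Intervals are wide where AL + NaIO3 takes part, with a median SE of 0.37 and 0.38, and narrow in the other comparisons, with 0.08 and 0.10.

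Fasting alone, compared in PBS-injected mice, gave the members a median log2 fold change of -0.01, with 4 means higher and 5 lower, and 4 genes lay outside their control range. Called genes were 0 of 9 with edgeR and with DESeq2, where edgeR called 0% and DESeq2 1.19% of all genes tested. At an unadjusted p under 0.05 there were 4 of 9 members with either tool, where 17.1% of all genes were with edgeR and 15.2% with DESeq2. Those 4 were also the members without overlap, Sag higher (10.6% of all genes were) and Gnb1, Pde6a and Rcvrn lower (11.2% of all genes were).

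Sag was at 5116, 5927 and 6449 CPM in IF + PBS, above the highest AL + PBS value of 4548 in 3 of 3 libraries. Its log2 fold change was 0.38 ± 0.09 (unadjusted p = 0.00133, adjusted p = 0.175). Pde6a was at 1923, 1675 and 1792 CPM, below the lowest AL + PBS value of 2220 (-0.33 ± 0.08, adjusted p = 0.175). The other catalytic subunit, Pde6b, was at 2159, 1940 and 1970 CPM and overlapped the controls (-0.01 ± 0.08). Gnb1 was at 4552, 4509 and 4625 CPM against at least 5236 (-0.22 ± 0.06, adjusted p = 0.191), a narrow range in both groups. Rcvrn, at 775, 664 and 740 CPM, was below its narrow control range (-0.19 ± 0.08, adjusted p = 0.278). For Gnat1, Gngt1, Pde6g and Cnga1 the log2 fold changes were between -0.09 and 0.13, and their groups overlapped. Some lists of other genes had mostly lower means in this comparison and others did not, with 0 genes called in each list given here. Of 18 genes of inner retinal neurons, 14 had a higher mean (median 0.07). The 12 RPE genes had 6 higher and 6 lower (median 0.02), with 3 higher without overlap, where 10.6% of all genes were. A list of 14 other genes of the rod cascade had 7 higher and 7 lower. Of 16 genes of photoreceptor structure and transcription, 15 had a lower mean in IF + PBS (median -0.14), 8 of them without overlap, where 11.2% of all genes were. The choroid and sclera list had 9 of 11 lower (median -0.46), with sums of 228, 260 and 281 CPM against 328 to 414. All 9 tested of 10 skeletal muscle genes were lower (median -1.66), 8 without overlap, and the list summed to 21.1, 104 and 76.0 CPM in IF + PBS against 295, 135 and 234 in AL + PBS. The part of these tissues in the rod values was not tested.

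In fasted mice, NaIO3 against PBS gave a median of 0.09 with 6 of 9 higher. The number called was 0 of 9 with edgeR and with DESeq2 (0% and 0.733% of all genes), and 3 of 9 had an unadjusted p under 0.05 with either tool, where 15.2% of all genes did with edgeR and 13.7% with DESeq2. Gngt1 was at 628, 740 and 805 CPM in IF + PBS and at 1120, 1191 and 915 in IF + NaIO3, higher in 3 of 3 libraries without overlap (0.57 ± 0.12, unadjusted p = 0.000804, adjusted p = 0.211). Rcvrn was the member lower without overlap, at 775, 664 and 740 CPM against 591, 521 and 614 (-0.33 ± 0.10, adjusted p = 0.220). Without overlap, 10.1% of all genes were higher and 10.9% lower. Cnga1 had 1054, 1225 and 1246 CPM against 1406, 1555 and 1231, and overlapped (0.25 ± 0.11, adjusted p = 0.302). The other 6 genes had log2 fold changes between -0.14 and 0.16 and overlapped.

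The interaction term tests whether the effect of NaIO3 differed between the diets. It was positive for 8 of 9 genes, that is, the change with NaIO3 was higher in IF than in AL mice, with a median of 0.56 on the log2 scale against -0.02 over all genes, and Sag was the exception at -0.15 ± 0.39. The values ran up to 0.79 ± 0.58 for Gngt1 and 0.78 ± 0.42 for Pde6b. None passed an adjusted p under 0.05 (0 of 9, against 0.0313% of all genes, and 0 of 9 with DESeq2, against 1.25%), and 0 of 9 had an unadjusted p under 0.05 with edgeR, where 12% of all genes did, and 2 of 9 with DESeq2, where 11.6% did. The lowest adjusted p was 0.428, for Pde6a at 0.73 ± 0.35. Without AL + NaIO3 replicate 3 the median was 0.21 and 0 of 9 were called, against 0.199% of all genes. Without replicate 1 it was 1.12, 8 of 9 had an unadjusted p under 0.05 where 22.5% of all genes did, and 2 of 9 were called, Gnb1 (1.11 ± 0.23) and Pde6a (1.12 ± 0.23), both at an adjusted p of 0.0389, against 2.26% of all genes. A call on these genes thus rests on which of the 3 AL + NaIO3 libraries are used.

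A ratio of 2 genes within a library does not depend on library scaling or on the amount of rod RNA, if both come from rods. The ratios below were chosen with the levels known and are given as a description, with no test. The count of Sag per count of Gnat1, arrestin to the transducin α subunit, was 0.402, 0.425 and 0.454 in AL + PBS. In IF + PBS it was 0.555, 0.579 and 0.637, in IF + NaIO3 0.670, 0.782 and 0.618, and in AL + NaIO3 0.779, 0.761 and 0.939. All 9 libraries of the other groups were above AL + PBS, and the highest ratio belonged to AL + NaIO3 replicate 3, in which both genes were at their lowest.

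The catalytic subunits of phosphodiesterase 6 divided the libraries by diet. The ratio of Pde6a to Pde6b was 1.09, 1.16 and 1.08 in AL + PBS and 1.16, 1.07 and 1.45 in AL + NaIO3. In IF + PBS it was 0.891, 0.863 and 0.910, and in IF + NaIO3 0.895, 0.856 and 0.981. Each of the 6 AL libraries was therefore above each of the 6 IF libraries, also without AL + NaIO3 replicate 3. In rods these proteins form a dimer of 1 subunit each, and the counts here, which are not divided by length, do not give that proportion.

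Gngt1 per Gnat1 was between 0.0585 and 0.0761 in AL + PBS, between 0.0681 and 0.0794 in IF + PBS and between 0.104 and 0.137 in IF + NaIO3. In AL + NaIO3 it was 0.109, 0.0834 and 0.0633, so replicate 3 was within the AL + PBS range. Cnga1 per Gnat1 followed the same order, with 0.0921 to 0.112 in AL + PBS, 0.114 to 0.123 in IF + PBS, 0.139 to 0.179 in IF + NaIO3, and 0.147, 0.139 and 0.0888 in AL + NaIO3. Gnb1 per Gnat1 was between 0.490 and 0.523 in AL + PBS, between 0.441 and 0.493 in IF + PBS and between 0.495 and 0.604 in IF + NaIO3. In AL + NaIO3 it was 0.548, 0.514 and 0.633, so IF + PBS lay below both NaIO3 groups without overlap. Gnb1 is also made in many other cell types, and the part of those cells in this ratio was not tested. Pde6g per Pde6a plus Pde6b overlapped between all groups. It was 0.427 to 0.488 in AL + PBS and 0.420 to 0.586 in IF + PBS. With NaIO3 it was 0.332 to 0.496 in AL and 0.422 to 0.514 in IF mice. Rcvrn per Gnat1 was 0.0601 to 0.0695 in IF + NaIO3, below AL + PBS (0.0768 to 0.0817) and AL + NaIO3 (0.0754 to 0.111). In IF + PBS it was 0.0649 to 0.0840. In some of these ratios and not in others, the groups thus differed in the make-up of the members' counts. Sag took 14.9% to 15.9% of them in AL + PBS and 23.8%, 23.7% and 27.1% in AL + NaIO3, and Gnat1 35.1% to 37.1% in AL + PBS and 30.5%, 31.2% and 28.9% in AL + NaIO3, with the lowest share of Gnat1 in IF + NaIO3 replicate 2 (28.3%).

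**Figure D3:**
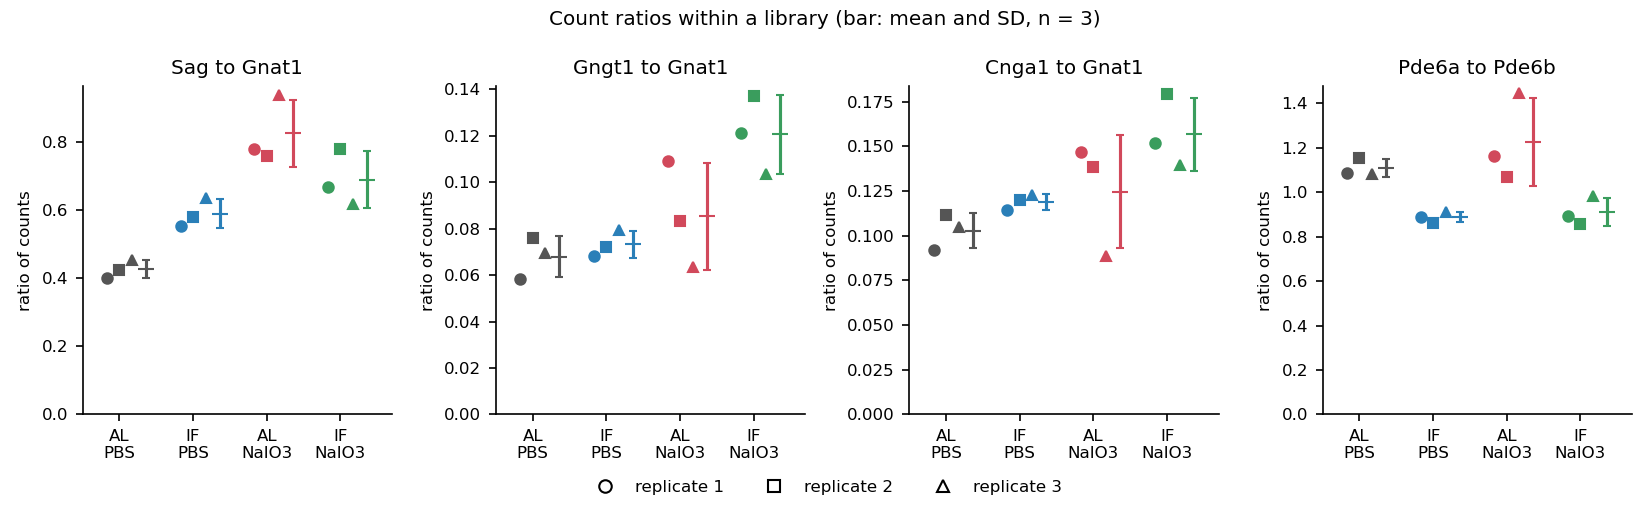
Count ratios of 4 pairs of rod genes within each library (vertical axes, from 0), with symbols for the replicate number and a bar for the mean and SD of 3 libraries per group. Sag to Gnat1 is lowest in AL + PBS (0.402 to 0.454), and Pde6a to Pde6b is above 1.06 in each AL library and below 0.99 in each IF library.

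Over the 12 libraries the 36 pairs of members had Pearson correlations of log2 CPM between 0.39 and 0.99, with a median of 0.89. These are descriptions, since the libraries share the 4 groups and AL + NaIO3 replicate 3 is low in all 9 genes. Without it the median was 0.60 and the pairs fell apart. Gngt1 and Cnga1 stayed at 0.97 (0.98 with it), and Sag followed both, at 0.76 with Gngt1 and 0.83 with Cnga1. Gnb1 and Pde6a were at 0.95 and Gnat1 and Pde6g at 0.88, and Gnb1 was at 0.84 with Gnat1 and 0.80 with Pde6g. Sag and Rcvrn went from 0.39 to -0.23 and Sag and Pde6a from 0.60 to 0.01.

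RefSeq promoter sequences (build GRCm38.p6) were at hand for 5 of the 9 genes, Gnb1, Gngt1, Pde6b, Cnga1 and Sag, and the 250 bases before the start site are printed for Gngt1, Cnga1 and Sag, one set of members with correlated levels, and for Pde6b, a choice made after the values were seen. Capitals mark 2 motifs searched on both strands, TAATCC, the core bound by the photoreceptor factor CRX, and TGCTGA, part of the site of the rod factor NRL. The motifs share no overlap in these windows. Positions are counted back from the RefSeq start site at the right-hand end. The files list Gngt1 from 3993792 and Cnga1, on the minus strand, up to 72644275, so these windows lie partly or wholly within the genes as listed there.
Gngt1, chr6:3993758-3994007, plus strand: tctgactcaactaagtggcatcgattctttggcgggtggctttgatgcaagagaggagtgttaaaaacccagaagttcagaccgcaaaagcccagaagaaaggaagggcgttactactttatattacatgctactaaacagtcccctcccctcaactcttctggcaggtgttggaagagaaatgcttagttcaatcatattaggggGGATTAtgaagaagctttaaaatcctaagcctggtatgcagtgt
Cnga1, chr5:72642753-72643002, minus strand: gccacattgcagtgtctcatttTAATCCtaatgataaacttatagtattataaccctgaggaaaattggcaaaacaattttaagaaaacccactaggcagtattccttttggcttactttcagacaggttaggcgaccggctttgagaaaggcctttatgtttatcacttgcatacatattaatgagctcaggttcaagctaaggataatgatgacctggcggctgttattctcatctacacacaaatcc
Sag, chr1:87803430-87803679, plus strand: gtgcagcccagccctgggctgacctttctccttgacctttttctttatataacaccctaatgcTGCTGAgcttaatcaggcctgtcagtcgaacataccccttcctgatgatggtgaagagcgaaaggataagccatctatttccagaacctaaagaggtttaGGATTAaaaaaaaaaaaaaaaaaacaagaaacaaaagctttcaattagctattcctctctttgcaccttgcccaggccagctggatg
Pde6b, chr5:108388123-108388372, plus strand: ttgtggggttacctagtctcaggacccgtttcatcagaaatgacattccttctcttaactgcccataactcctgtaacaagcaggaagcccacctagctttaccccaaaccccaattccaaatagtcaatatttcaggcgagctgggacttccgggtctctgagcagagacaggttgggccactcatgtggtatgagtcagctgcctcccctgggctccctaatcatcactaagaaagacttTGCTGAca
TAATCC or its reverse complement GGATTA began at -44 in Gngt1, at -228 in Cnga1 and at -87 in Sag, and was not in the windows of Pde6b and Gnb1. TGCTGA began at -187 in Sag and at -8 in Pde6b. Of 32851 RefSeq promoter windows of this length, 6.25% held TAATCC on either strand, 16.1% held TGCTGA and 0.962% held both, as Sag did. A match of letters says nothing of binding in these mice.

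The 10 genes most like the members were sought by Pearson correlation with the mean standardized profile of the 9, over 12 libraries and among 10652 other genes with a mean of at least 10 CPM. The list was led by Susd3 (0.99) and Prph2 (0.99), a structural protein of the outer segment disc rim. Faim, Slc24a1, the rod sodium, calcium and potassium exchanger, and Cdr2 followed at 0.99 each. Nrl, the transcription factor that specifies rods, and Tob2 had 0.98, as did Nim1k and Pcbp2. These genes share the low value in AL + NaIO3 replicate 3 with the members.

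Other genes of the rod response went the same way as the members. In a list of 14 cascade partners, 14 of 14 had a lower mean in AL + NaIO3 than in AL + PBS (median -0.50) and 13 of 14 a higher one in IF + NaIO3 than in AL + NaIO3 (median 0.48), with 0 of 14 called in each. Pdc, phosducin, which binds the transducin βγ subunits, was at 2354, 2573 and 2360 CPM in AL + PBS, at 2276, 1338 and 567 in AL + NaIO3 and at 2342, 3236 and 2477 in IF + NaIO3. It overlapped in neither comparison (-0.79 ± 0.43, adjusted p = 0.569, and 0.94 ± 0.44, adjusted p = 0.458). Grk1, the kinase restrained by recoverin, had a log2 fold change of -0.60 ± 0.29 and 0.48 ± 0.29 in the same comparisons, and Unc119, a carrier of lipid-modified transducin α, -0.42 ± 0.38 and 0.49 ± 0.39. Without AL + NaIO3 replicate 3 the values were -0.43 ± 0.22 and 0.56 ± 0.25 for Pdc, still without overlap, -0.35 ± 0.16 and 0.22 ± 0.16 for Grk1, and -0.08 ± 0.18 and 0.14 ± 0.19 for Unc119. The medians of the list were then -0.24 (13 of 14 lower) and 0.15 (13 of 14 higher), and without replicate 1 they were -0.86 (14 of 14 lower) and 0.82 (13 of 14 higher), with 0 of 14 called in each. Of the 14 partners, 7 were lower in AL + NaIO3 than in AL + PBS without overlap, with replicate 3 (8.63% of all genes were) or without it (15.1%). Higher in IF + NaIO3 than in AL + NaIO3 without overlap were 3 of 14, with replicate 3 (8.86% of all genes) or without it (12.2%). Among 16 genes of photoreceptor structure and transcription, 15 had a lower mean in AL + NaIO3 than in AL + PBS (median -0.44), Prph2 at -0.46 ± 0.43, Nrl at -0.69 ± 0.42 and Rbp3, the retinoid carrier between photoreceptors and RPE, at -0.20 ± 0.27. Without replicate 3 these values were -0.11 ± 0.24, -0.33 ± 0.21 and -0.12 ± 0.24, and the median of the list was -0.13, against -0.75 without replicate 1.

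The direction of the cone counterparts depended on which library was left out. Of 10 cone genes, 7 had a higher mean in AL + NaIO3 than in AL + PBS (median 0.15), 10 of 10 without replicate 3 (median 0.38), and 4 of 10 without replicate 1, where 6 were lower (median -0.11), with 0 called in each. Gnb3, the cone β subunit, which bipolar cells also make, was higher without overlap, at 401, 482 and 736 CPM against 327, 257 and 291 (0.90 ± 0.24, adjusted p = 0.284, and 0.60 ± 0.14, adjusted p = 0.157, without replicate 3). The summed level of the 10 genes was 2009, 1618 and 1488 CPM in AL + NaIO3 against 1531, 1305 and 1496 in AL + PBS, and Gnb3 carried the sum in replicate 3. Without Gnb3, a choice made after its values were seen, the sums were 1608, 1136 and 752 CPM against 1204, 1048 and 1206, so replicate 3 was at 65.3% of the AL + PBS mean in cone genes and at 37.3% in the rod genes. Gnat2, the cone α subunit of transducin, was at 268, 190 and 110 CPM against 199 to 211 (-0.12 ± 0.28, and 0.15 ± 0.15 without replicate 3). The difference between rod and cone genes as groups was not tested.

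Transcripts of other cells varied beside the rod genes. Summed over 18 genes of inner retinal neurons, AL + NaIO3 had 2411, 2752 and 2858 CPM and AL + PBS 2645 to 2809, and over 9 genes of Müller glia 4123, 4069 and 4892 against 4514 to 5050, so these sums were not low in replicate 3. The macrophage and microglia list of 12 genes summed to 257, 183 and 976 CPM in AL + NaIO3, above the 66.8 to 89.8 of the 9 other libraries. Of its genes, 11 of 12 were higher than in AL + PBS without overlap, with replicate 3 (9.67% of all genes were) or without it (15%), and the number called went from 0 of 12 to 6 of 12 when replicate 3 was left out (0.572% of all genes were then called). Lyz2, lysozyme of myeloid cells, was at 49.3, 34.3 and 572 CPM in AL + NaIO3 and at 12.1 to 18.2 in AL + PBS (1.55 ± 0.22, adjusted p = 0.0233, without replicate 3). Against IF + NaIO3, 11 of 12 of these genes were higher in AL + NaIO3 without overlap (10.1% of all genes were), with 0 called, or 5 called without replicate 3 (0.476% of all genes). The choroid and sclera list of 11 genes summed to 421, 329 and 1782 CPM against 328 to 414 in AL + PBS, and its median log2 fold change of 1.33 became 0.05 without replicate 3.

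For 12 RPE genes the sums were 1017, 834 and 2772 CPM in AL + NaIO3 against 1762 to 1951 in AL + PBS. The value of replicate 3 came from 4 pigment genes, Dct, Tyrp1, Pmel and Mlana, which melanocytes of the choroid also make and which summed to 228, 183 and 1892 CPM against 229 to 310. The other 8 RPE genes, a split made after the values were seen, summed to 789, 651 and 880 CPM in AL + NaIO3, 1533 to 1697 in AL + PBS, and 1583, 751 and 1364 in IF + NaIO3, so they were below the AL + PBS libraries in all 3 AL + NaIO3 libraries and in 2 of the 3 IF + NaIO3 libraries. In IF + PBS they summed to 1792, 1986 and 2292 CPM, above all 3 IF + NaIO3 libraries, and 12 of 12 RPE genes had a lower mean in IF + NaIO3 than in IF + PBS (median -0.62), 5 without overlap (10.9% of all genes were) and 8 at an unadjusted p under 0.05 (15.2% of all genes), with 0 called. Slc16a8, the lactate transporter of the RPE, was at 31.7, 29.2 and 32.9 CPM against 62.1 to 65.0 (-1.02 ± 0.11, adjusted p = 0.0392), the 1 gene of the lists called in AL + NaIO3 against AL + PBS. Without replicate 3, 5 of 12 RPE genes were called lower, in a fit where 0.572% of all genes were called. Among the 5 were Rgr (-1.53 ± 0.19, adjusted p = 0.0138) and Slc16a8 (-1.07, adjusted p = 0.00592). Lens genes summed to 294 CPM in AL + PBS replicate 2 and to at most 10.5 in the other libraries, and skeletal muscle genes to 284, 217 and 85.3 CPM in AL + NaIO3 and 59.0, 118 and 240.5 in IF + NaIO3. The part of these cells in the rod values was not tested.

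**Figure D4:**
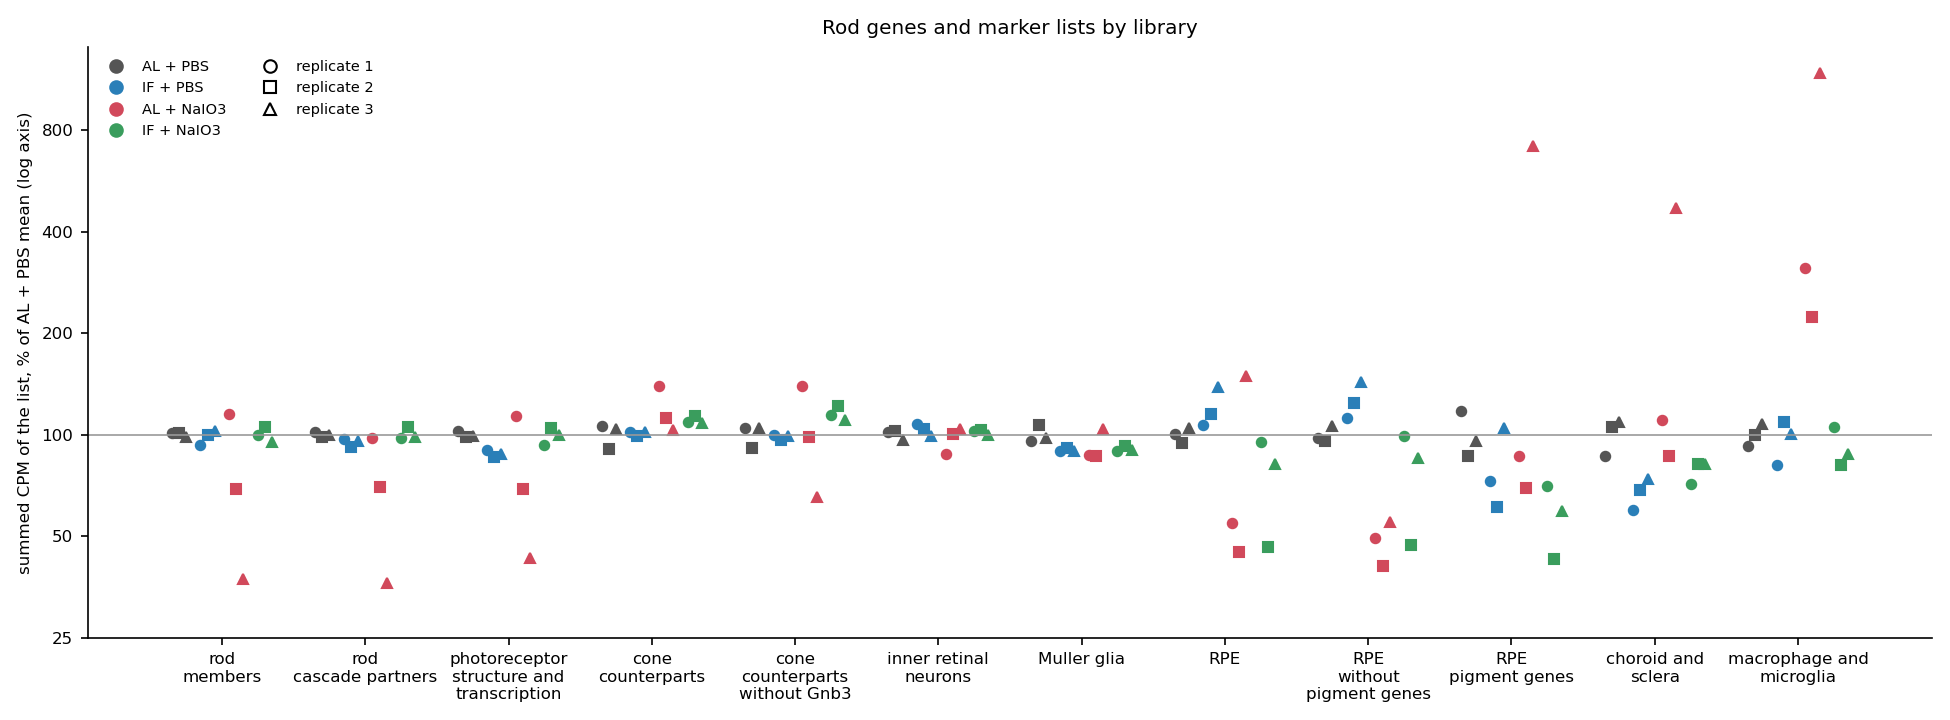
Summed TMM-scaled CPM of the 9 rod genes and of lists of other genes in each library, with the cone list also without Gnb3 and the RPE list split at 4 pigment genes, as a percentage of the AL + PBS mean (vertical log axis), coloured by group with symbols for the replicate number. In AL + NaIO3 replicate 3 the rod genes are at 37.3%, the cone genes without Gnb3 at 65.3% and the RPE genes without the pigment genes at 55.1%, while the inner retinal neuron and Müller glia lists are near 100% and the choroid, pigment and macrophage sums far above it.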

How the data were processed

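RNA-seq of 12 eye samples was analysed. The authors deposited whole-number read counts per gene without normalization, and FPKM values, which the authors adjusted for gene length and depth. The submitters' processing notes name HISAT2, StringTie, DESeq2, edgeR and GRCm39, although the gene coordinates in the files are those of GRCm38, and the counting tool and its use of strand are not given in the sources used here. A deposited table of the authors' own fold changes and p-values was not used.

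Groups came from the labels. Counts were tested in R 4.3.3 with edgeR 4.0.16 (TMM, filterByExpr, quasi-likelihood test) on the 6 libraries compared, or 12 for the interaction, with Benjamini-Hochberg adjustment over all genes tested. CPM used the TMM factors of the 12 libraries, and log2 CPM a prior count of 2. No pair of replicates was a duplicate (chi-square per gene 13.2 to 238). At these depths counting error is small beside the spread between libraries. The test was tested on data simulated from the PBS groups, with larger changes and less spread than the members had in AL + NaIO3. A group as variable as AL + NaIO3 was not simulated.

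The members and lists were chosen with earlier results of these data known. Named genes were the 9 members, the 3 most abundant tested genes of each list where a result used them, called list genes and the 10 most similar genes, of which 1 is not reported here. Alternatives were DESeq2 1.42.0, upper quartile scaling, no filter, at least 10 counts in each library, a 12-library fit, a replicate block, no fold threshold and leaving out each library. Library totals without TMM, sums of parts of the cone and RPE lists, and member and list values without each AL + NaIO3 library, were added after seeing the data.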

Additional observations from a re-analysis of the deposited data

Results flagged for a closer look

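In 4 of the 9 members, all libraries of a group lay on the same side of the mean of the group it was compared with. Under the same contrast at the other injection or diet, all libraries lay on the opposite side of that comparison's mean. Single libraries of the compared groups could still overlap, as for Gnat1 with PBS (adjusted p = 0.534 by edgeR). The share of all genes with this pattern was not counted. For diet within each injection, the log2 ratio of mean CPM (IF against AL) of Gnat1 was -0.087 with PBS and 0.45 with NaIO3, that of Gnb1 -0.21 and 0.44, and that of Pde6a -0.33 and 0.40. For injection within each diet (NaIO3 against PBS), the ratio of Pde6b was -0.65 in AL mice and 0.13 in IF mice. The pattern itself was not tested. The interaction term of edgeR, which tests the difference, gave adjusted p-values of 0.612 for Gnat1, 0.499 for Gnb1, 0.428 for Pde6a and 0.459 for Pde6b. In each of the first 3 genes AL + NaIO3 replicate 1 was above all 3 IF + NaIO3 libraries, so the positive side rests on the other libraries of that group.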

How the results depend on the processing

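In the comparisons with AL + NaIO3, differences of the size seen here could not be separated from the variation between its 3 libraries, and the cause of that variation was not tested. The number of members called was 0 in each comparison under each alternative except the interaction, where leaving out 1 library gave 0 to 2 (2 without AL + NaIO3 replicate 1). Counts of all genes called moved more: DESeq2 called 446, 499, 171, 80 and 213 genes in AL + NaIO3 against AL + PBS, IF + NaIO3 against AL + NaIO3, IF + PBS against AL + PBS, IF + NaIO3 against IF + PBS and the interaction, where edgeR called 12, 6, 0, 0 and 5.

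The median interaction of the members was between 0.21 and 1.12 when leaving out 1 library. For IF + PBS against AL + PBS the median was between -0.051 and 0.0042, and for IF + NaIO3 against IF + PBS between 0.021 and 0.15, or 0.031 with library totals without TMM. Directions that reversed when leaving out 1 library had these ranges. In AL + NaIO3 against AL + PBS they were -0.21 to 0.50 for Sag, -0.98 to 0.20 for Gngt1 and -0.91 to 0.13 for Cnga1. In IF + NaIO3 against AL + NaIO3 they were -0.055 to 0.67 for Sag and -0.13 to 0.49 for Rcvrn. In IF + PBS against AL + PBS they were -0.051 to 0.12 for Gngt1, -0.061 to 0.020 for Pde6b (0.0061 with library totals without TMM) and -0.014 to 0.13 for Pde6g. In IF + NaIO3 against IF + PBS they were -0.0053 to 0.16 for Sag and -0.13 to 0.017 for Pde6g, and in the interaction -0.43 to 0.29 for Sag.

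Replicate numbers did not pair the libraries: the best match of a library in another group had its number in 5 of 36 cases. With the replicate block 0 members were called in each comparison, with medians of -0.68, 0.59, -0.01, 0.09 and 0.64, and 28 genes were called in each comparison with AL + NaIO3 and 8 in the interaction.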
